A study of Mus musculus with 112 samples.

Results

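The long noncoding RNAs (lncRNAs) followed here were Platr3, Platr4, Platr5, Platr6, Platr7, Platr8, Platr10 and Platr11. They were chosen by symbol, with earlier results of these data known. They are 8 of the 1624 lncRNAs held in 4 tables of values from mouse embryonic stem cells (ESCs). All 8 were held for total RNA of the antisense experiment and of the degron line, 7 for polyA RNA (without Platr11), and 5 for SLAM-seq (Platr3, Platr4, Platr5, Platr7 and Platr10).

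Platr stands for pluripotency-associated transcript, a set of mouse lncRNAs named for being present in ESCs and lost on differentiation. Platr4 has been reported to be needed when mouse ESCs form mesoderm and endoderm, and Platr10 to bind chromatin at the Oct4 gene. The U1 small nuclear ribonucleoprotein (U1 snRNP) pairs with 5′ splice sites in new transcripts, and it also keeps transcripts from being cut and polyadenylated too early. U2 snRNP acts later in splicing, at the branch point. RNA on chromatin includes transcripts still attached to the polymerase as well as finished RNA that stays in place.

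The cells were of the 46C line, from strain 129/Ola. In the antisense experiment they were taken 2 h after nucleofection of antisense morpholino oligonucleotides (AMOs), which mask a small nuclear RNA. The groups were U1 AMO at 75 µM, U2 AMO at 75 µM, U1 and U2 AMO together at 50 µM, and control AMO at 75 µM. The degron line was made from 46C cells and carries SNRNP70, a protein of U1 snRNP, joined to an auxin-inducible degron, also in its untreated cells. It was sampled after 4 h of 500 µM auxin (IAA) and at 0 h. For SLAM-seq, which marks RNA made during labelling with 4-thiouridine, the degron cells had 2 h of IAA and then 3 h of IAA with label, or 3 h of label without IAA. Each group had 3 libraries per fraction, except control AMO in whole cells, for which 2 were used. The labels do not say whether replicates were separate cultures, so the p-values measure the spread between these libraries, which may be technical.

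Total and polyA RNA were given in FPKM, which is per transcript length, so levels may be set side by side between genes within a table. In chromatin, cytoplasm and nucleoplasm they were scaled to added RNA, and in whole cells no such scaling is named. The chromatin medians over all lncRNAs were 0.88 to 1.08 FPKM in U1 AMO libraries, 1.38 to 1.91 in U2 AMO, 0.89 to 1.17 in U1+U2 AMO and 1.83 to 2.0 in control AMO libraries. Read depth of these libraries is unknown. Lncenc1, a lncRNA of naive ESCs, stood at 50.1 to 63.8 FPKM in the 11 whole-cell AMO libraries and at 110 to 122 FPKM in the 6 of the degron line. Xist, which coats the inactive X chromosome of differentiated female cells, was at most 0.39 FPKM and 0.22 FPKM in them. A low Xist tells nothing of the state of male cells, and the sex of the line was not checked here. Bvht, a lncRNA of early heart cells, was at 1.75 to 4.07 FPKM and 4.78 to 6.58 FPKM, and Hotairm1, a lncRNA of myeloid differentiation, reached 2.33 FPKM and 0.30 FPKM. Another ESC lncRNA, Panct2, was at 0.71 to 1.5 FPKM and 1.28 to 3.39 FPKM. Of the same marker lists, the ESC lncRNAs Panct1, Panct3 and Tunar and the lncRNAs of differentiated or fibroblast cells H19, Hotair, Hottip and Fendrr were not held for total RNA. The tables held lncRNAs, and SNRNP70 and the U1 and U2 RNAs were not analysed here. In bulk RNA, fewer cells that express a gene and less RNA per cell cannot be told apart.

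The 8 genes are spread over 5 chromosomes (1, 2, 3, 9 and 10), in the positions RefSeq gives on GRCm38. Platr3 lies at chr2:135646523-135652067 on the plus strand, 6536 bases from Plcb4. Platr8 lies on the same chromosome at chr2:109902396-109913319 on the minus strand, 1459 bases from Lin7c and 4328 bases from Lgr4. Platr4 (chr3:41487681-41493199) and Platr10 (chr3:75647441-75655731, minus strand) share chromosome 3, and Platr10 is 4918 bases from Serpini1. Platr6 (chr10:21834011-21858238) and Platr7 (chr10:84547417-84553338) are both on the minus strand of chromosome 10. Platr5 at chr1:88754890-88755733 on the plus strand is the shortest gene at 844 bases, and Platr11 at chr9:118402017-118447177 the longest at 45161 bases. Platr11 overlaps the lncRNAs 4933432G23Rik and Gm33285, so its values are uncertain: the library kit kept strand, but whether the values count a single strand is not given. The other 7 overlap no other gene.

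RefSeq promoter windows (250 bases before to 50 after a start site, GRCm38.p6) were held for Platr3, Platr5, Platr6, Platr7, Platr8 and Platr10. Those of 5 genes are shown 5′ to 3′ on the gene's strand. Platr3 and Platr5 are shown because they hold the letters of a strong 5′ splice site, the kind U1 RNA pairs with, and Platr6, Platr7 and Platr10 because their RNA was lower on chromatin in most comparisons given here. Platr6 has a window for each of 2 start sites, and both lie inside the gene span given above. Its 5′ end in that span is at 21858238, and no window was held there. Capitals mark GTAAGT and GTGAGT (sense strand), TATAAA (sense strand), CCAAT (both strands, ATTGG on the other), CATTGT (both strands) and ATGCAAAT (both strands).
Platr3: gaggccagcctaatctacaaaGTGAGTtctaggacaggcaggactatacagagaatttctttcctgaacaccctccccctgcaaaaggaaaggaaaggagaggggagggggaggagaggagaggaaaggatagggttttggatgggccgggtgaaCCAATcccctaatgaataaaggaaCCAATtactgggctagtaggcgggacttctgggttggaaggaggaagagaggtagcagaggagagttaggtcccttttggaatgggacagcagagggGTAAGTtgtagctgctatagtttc
Platr5: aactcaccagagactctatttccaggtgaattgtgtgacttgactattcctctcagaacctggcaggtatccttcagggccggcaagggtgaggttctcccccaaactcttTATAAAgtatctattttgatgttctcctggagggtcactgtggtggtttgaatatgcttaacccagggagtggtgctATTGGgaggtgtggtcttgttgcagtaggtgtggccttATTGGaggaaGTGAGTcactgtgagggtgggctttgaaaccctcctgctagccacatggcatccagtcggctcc
Platr6, first window: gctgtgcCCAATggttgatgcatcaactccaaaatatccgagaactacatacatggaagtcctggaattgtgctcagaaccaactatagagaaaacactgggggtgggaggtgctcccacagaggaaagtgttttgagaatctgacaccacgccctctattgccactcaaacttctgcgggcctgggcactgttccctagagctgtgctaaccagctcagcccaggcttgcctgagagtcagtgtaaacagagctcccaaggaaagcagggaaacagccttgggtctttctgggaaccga
Platr6, second window: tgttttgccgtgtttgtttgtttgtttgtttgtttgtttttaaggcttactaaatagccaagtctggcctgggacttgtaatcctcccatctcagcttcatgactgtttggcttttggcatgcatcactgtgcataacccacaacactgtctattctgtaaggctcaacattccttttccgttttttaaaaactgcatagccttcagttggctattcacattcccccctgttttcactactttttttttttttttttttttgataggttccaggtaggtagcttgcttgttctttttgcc
Platr7: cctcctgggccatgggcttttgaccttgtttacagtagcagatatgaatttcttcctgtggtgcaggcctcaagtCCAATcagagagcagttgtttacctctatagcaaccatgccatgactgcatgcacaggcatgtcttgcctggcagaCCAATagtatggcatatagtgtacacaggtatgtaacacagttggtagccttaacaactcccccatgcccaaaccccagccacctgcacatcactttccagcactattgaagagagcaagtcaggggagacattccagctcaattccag
Platr10: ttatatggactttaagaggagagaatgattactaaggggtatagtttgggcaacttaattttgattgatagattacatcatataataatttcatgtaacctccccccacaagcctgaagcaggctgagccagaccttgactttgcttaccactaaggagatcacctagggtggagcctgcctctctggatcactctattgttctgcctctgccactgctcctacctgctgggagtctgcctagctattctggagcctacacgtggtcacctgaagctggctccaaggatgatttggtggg
The Platr3 window is chr2:135646273-135646572, that of Platr5 chr1:88754640-88754939, those of Platr6 chr10:21847563-21847862 and chr10:21845984-21846283, that of Platr7 chr10:84553289-84553588 and that of Platr10 chr3:75655682-75655981. GTAAGT stood in the Platr3 window from position 27 after the start, and it was in 4.24% of all 32841 windows, with 0.904% of windows holding it after the start. GTGAGT was in the windows of Platr3 and Platr5, at positions -229 and -14, before the start in both, and in 7.70% of all windows. CCAAT was in the windows of Platr3, Platr5, Platr6, Platr7 and Platr8 and in 37.4% of all. TATAAA was in that of Platr5 alone (8.32% of all), CATTGT in that of Platr8 alone (12.6% of all), and the octamer ATGCAAAT in none of the 6 (1.74% of all). A match is a run of letters and not a used site.

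In cells given control AMO or no IAA these RNAs differed widely in level. Platr10 was the most abundant, with 62.1 and 52.7 FPKM in whole cells after control AMO and 51.8, 50.9 and 45.0 FPKM in whole degron cells at 0 h. After control AMO the next levels were Platr4 (5.55 and 9.28 FPKM), Platr3 (3.14 and 5.54 FPKM) and Platr7 (3.33 and 3.61 FPKM). Platr11 followed at 1.11 and 1.25 FPKM, and Platr5, Platr8 and Platr6 all lay between 0.50 and 0.98 FPKM. Platr10 and Platr11 stood clear of their neighbours in this order, while Platr4 and Platr3 met closely (5.55 against 5.54 FPKM), and the ranges of Platr3 and Platr7 overlapped, as did those of Platr5, Platr8 and Platr6. In the degron line at 0 h Platr3 (13.5 to 19.8 FPKM) and Platr4 (13.2 to 13.8 FPKM) overlapped, and so did the 4 lowest. The 2 tables were scaled separately, so no test was made between them.

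Most of the genes had less on chromatin than the usual lncRNA. The chromatin share is the part of the summed FPKM of chromatin, cytoplasm and nucleoplasm, from group means, and it rests on the added RNA making fractions comparable. Platr10 had 6.86% on chromatin after control AMO and 12.2% at 0 h of IAA, and Platr3 had 7.97% and 11.5%. Platr4 was at the other end, with 50.0% after control AMO and 70.2% at 0 h. Platr6 had 33.3% and 42.3%, Platr11 26.1% and 44.7%, Platr7 16.3% and 19.9%, and Platr8 18.0% and 14.8%. Platr5 had 21.6% and 65.4%. The median share over lncRNAs with a sum of at least 1 FPKM was 51.1% after control AMO (1215 lncRNAs) and 65.4% at 0 h (1206 lncRNAs). Against the mean of the soluble fractions, the log2 level on chromatin in control AMO cells was higher for Platr4 (1.32 ± 0.32 SE, limma, Benjamini-Hochberg adjusted p = 6.09e-04) and lower for Platr10 (-1.71 ± 0.23 SE, adjusted p = 1.89e-07) and Platr3 (-1.98 ± 0.47 SE, adjusted p = 5.02e-04). Among all 1277 lncRNAs tested 59.2% were higher on chromatin and 9.87% lower there, and the medians were -0.44 over the 8 and 1.15 over all. At 0 h of IAA, Platr4 (2.20 ± 0.18 SE, adjusted p = 6.76e-09) and Platr5 (2.05 ± 0.57 SE, adjusted p = 0.00332) were higher on chromatin, and Platr3, Platr7, Platr8 and Platr10 were lower, with log2 differences of -0.92 to -1.79 and adjusted p of at most 4.21e-04. The shares of all lncRNAs tested were 68.9% higher and 11.6% lower there, with medians of -0.19 over the 8 and 1.78 over all. With every library centred on its median, Platr4 after control AMO (0.17, adjusted p = 0.634) and Platr5 at 0 h (0.24, adjusted p = 0.715) no longer passed as higher. Platr5, Platr6, Platr7 and Platr8 then passed as lower after control AMO, and Platr6 and Platr11 at 0 h. That makes 6 of 8 lower in each, where 31.1% of all lncRNAs were lower after control AMO and 39.3% at 0 h. Lower after centring means lower relative to the median lncRNA of each library. Platr6 went from 0.46 to -0.69 after control AMO and from 0.55 to -1.27 at 0 h. Platr11 went from 0.71 to -1.10 at 0 h. Uncentred, neither gene was lower on chromatin than in the soluble fractions.

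After U1 AMO all 8 had lower mean levels on chromatin than after control AMO, and 5 passed the test. Passing here means an adjusted p under 0.05 in limma across all 1263 lncRNAs tested, and log2 changes are of FPKM plus 0.16. Among all lncRNAs tested 51.3% passed as lower and 5.07% as higher, so the 5 of 8 are near the background. The median log2 change was -1.32 over the 8 and -0.82 over all, so lncRNAs as a whole were lower.

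Platr4 had 3.61, 5.37 and 4.30 FPKM on chromatin in U1 AMO libraries, against 20.6, 17.1 and 18.3 FPKM in control AMO libraries. Every U1 AMO library was far below every control library. Platr4 fell by 2.05 on the log2 scale (SE 0.20, limma, adjusted p = 2.53e-05). Platr6 had 0.14, 0.22 and 0.13 FPKM after U1 AMO, against 1.36, 1.23 and 1.00 FPKM after control AMO, again with no overlap. Its log2 change was -2.07 (SE 0.29, adjusted p = 1.67e-04), at levels near the added 0.16. Platr7 had 0.67, 0.80 and 0.90 FPKM after U1 AMO, against 3.97, 2.61 and 2.48 FPKM after control AMO. The groups were apart, and the log2 change was -1.72 (SE 0.29, adjusted p = 4.88e-04). Centred on the median of each library, these 3 still passed, with log2 changes of -1.20 for Platr4, -1.22 for Platr6 and -0.87 for Platr7, where 11.5% of all lncRNAs passed as lower and 17.9% as higher.

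Platr10 had 12.2, 11.2 and 12.8 FPKM on chromatin after U1 AMO, against 23.3, 17.7 and 23.8 FPKM after control AMO. The groups did not overlap, and the log2 change was -0.82 (SE 0.16, adjusted p = 0.0013), the same as the median of all lncRNAs to 2 decimals. With each library centred on its median it was 0.03 (adjusted p = 0.911). Platr8 had 0.35, 0.26 and 0.24 FPKM after U1 AMO, against 0.70, 0.48 and 0.94 FPKM after control AMO. These groups were also apart, with a log2 change of -0.94 (SE 0.29, adjusted p = 0.0146), which was -0.75 (adjusted p = 0.0673) without control AMO replicate 3 and -0.09 (adjusted p = 0.86) after centring.

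Platr3, Platr5 and Platr11 did not pass, and their libraries scattered. Platr3 had 1.11, 0.72 and 0.65 FPKM after U1 AMO, against 4.34, 1.23 and 1.17 FPKM after control AMO (log2 change -1.07, SE 0.73, adjusted p = 0.226). The groups were apart by a narrow gap, and control replicate 1 was high. Platr5 had 0.52 and 0.70 FPKM and was listed at 0 in U1 AMO replicate 3, against 1.86, 1.88 and 0.31 FPKM after control AMO (log2 change -1.46, SE 0.84, adjusted p = 0.153). Platr11 had 1.09, 0.27 and 0.36 FPKM after U1 AMO, against 0.98, 2.18 and 1.05 FPKM after control AMO (log2 change -1.18, SE 0.60, adjusted p = 0.113). In both of these the groups overlapped.

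**Figure D1:**
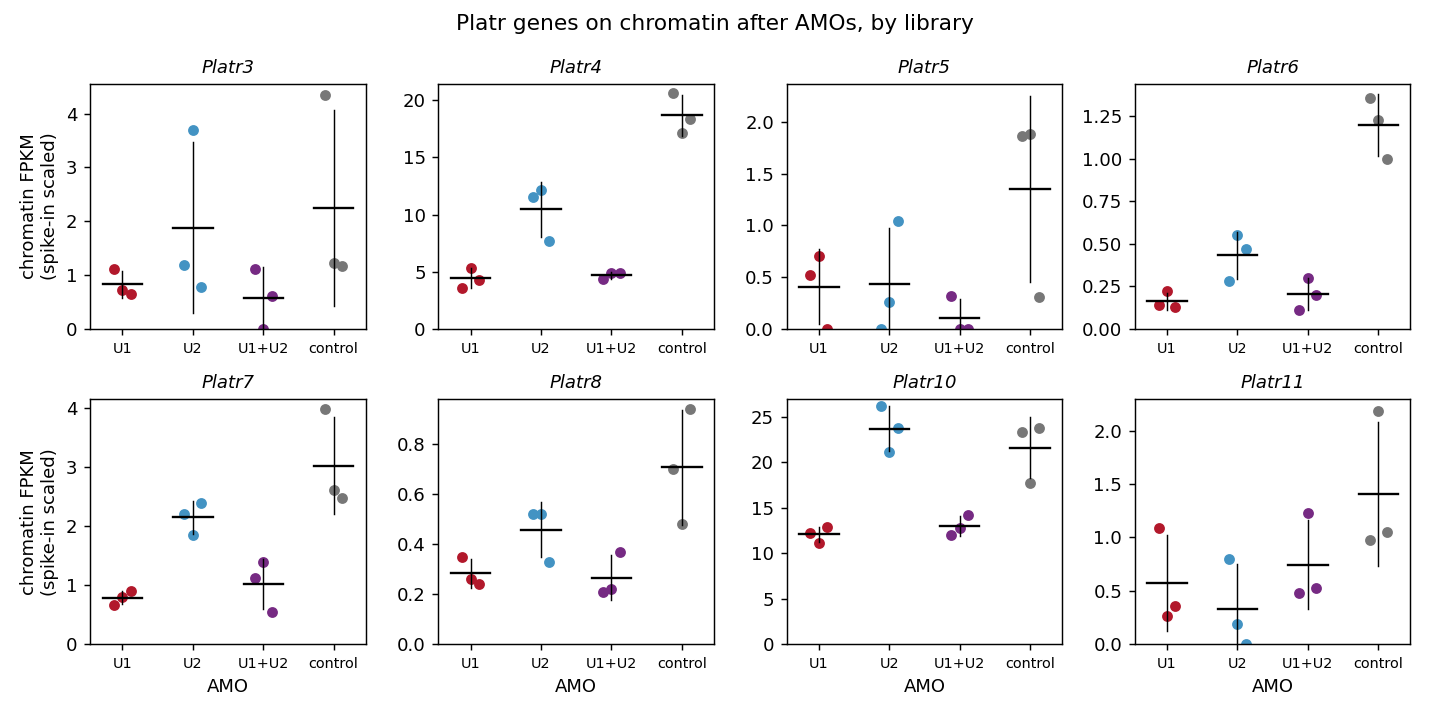
Spike-in scaled FPKM on chromatin (y axis, starting at 0, 1 scale per gene) of each Platr gene in every library after U1, U2, U1+U2 and control AMO. Points are libraries, the wide bar is the mean and the thin bar the SD (n = 3). Platr4, Platr6, Platr7 and Platr10 have every U1 AMO library below every control library, and for Platr10 the U2 AMO libraries lie at 21.2 to 26.1 FPKM, within and above the control range of 17.7 to 23.8 FPKM.

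In the soluble fractions and in whole cells none of the 8 passed after U1 AMO. Among all lncRNAs 3.11% passed as lower and 3.90% as higher in cytoplasm, 3.76% and 10.3% in nucleoplasm, and 7.47% and 6.20% in whole cells. At an unadjusted p under 0.05 there were 3 of the 24 tests of a member in a fraction. Platr10 in cytoplasm was at 305, 169 and 244 FPKM after U1 AMO, against 332, 204 and 287 FPKM after control AMO, groups that overlap widely. Platr4 in nucleoplasm had 2.72, 0.77 and 2.10 FPKM after U1 AMO, against 6.35, 2.42 and 4.00 FPKM after control AMO (log2 change -1.18, SE 0.43, adjusted p = 0.0927). The groups overlapped. Same-numbered libraries deviated together there, and with the replicate number as a block the adjusted p was 0.00772. Centred on the library medians the change was -1.24 (adjusted p = 0.0262). In whole cells Platr4 had 3.45, 2.87 and 3.53 FPKM after U1 AMO, against 9.28 and 5.55 FPKM after control AMO, groups that did not overlap (log2 change -1.10, SE 0.34, adjusted p = 0.0604). Median changes over the 8 were -0.32 in cytoplasm, -0.22 in nucleoplasm and -0.55 in whole cells, beside -0.20, 0.00 and -0.22 over all lncRNAs.

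U2 AMO, given at the same concentration, left most of these RNAs nearer to control on chromatin. Platr4 and Platr6 passed as lower, 2 of 8, where 4.75% of all lncRNAs were lower and 2.61% higher. Platr4 had 11.5, 12.2 and 7.73 FPKM after U2 AMO, below all control libraries given above but above all U1 AMO libraries (log2 change -0.85, SE 0.20, adjusted p = 0.0235). Platr6 had 0.28, 0.55 and 0.47 FPKM after U2 AMO, likewise between the other groups (log2 change -1.21, SE 0.29, adjusted p = 0.0246). Both calls were weak: that of Platr4 was lost without control replicate 1 or 3 or U2 AMO replicate 3 (adjusted p 0.0709 to 0.108), and that of Platr6 without any of the 3 control libraries or U2 AMO replicate 1 or 3 (adjusted p 0.0503 to 0.106). Platr11 had 0.80 and 0.19 FPKM and was listed at 0 in U2 AMO replicate 3 (log2 change -1.97, SE 0.60, adjusted p = 0.0693), and with the replicate block its adjusted p was 0.031. Platr10 was at 26.1, 21.2 and 23.8 FPKM, within and above the control range (log2 change 0.14, SE 0.16, adjusted p = 0.708). The median log2 change was -0.66 over the 8 and -0.15 over all, and Platr4 and Platr6 also passed after centring, where 3.64% of all were lower and 7.28% higher.

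In cytoplasm and whole cells none of the 8 passed after U2 AMO. Of all lncRNAs, 0.876% were lower and 0.398% higher in cytoplasm, and 1.19% lower and 2.14% higher in whole cells. None of the 8 passed in nucleoplasm either, where 18.3% of all lncRNAs were higher and 0.0835% lower, and the medians were 0.63 over the 8 and 0.47 over all. There Platr5 had 1.20, 0.75 and 1.50 FPKM after U2 AMO, against 0.51, 0.28 and 0.75 FPKM after control AMO (log2 change 0.98, SE 0.36, adjusted p = 0.0752), and 0.0285 with the replicate block. The groups touched at 0.75 FPKM. After centring Platr6 passed there as lower (-1.06, adjusted p = 0.0168), where 3.51% of all lncRNAs were lower and 8.51% higher. Uncentred its log2 change was -0.54, which did not pass. Its levels were 0.06 to 0.18 FPKM after U2 AMO and 0.16 to 0.33 FPKM after control AMO, near the added 0.16. At an unadjusted p under 0.05 there were 5 of the 24 tests of a member in these fractions.

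Set directly against U2 AMO on chromatin, U1 AMO gave lower levels of Platr4 (log2 difference -1.20, SE 0.20, adjusted p = 6.62e-04), Platr7 (-1.28, SE 0.29, adjusted p = 0.00423), Platr10 (-0.96, SE 0.16, adjusted p = 7.27e-04) and Platr6 (-0.86, SE 0.29, adjusted p = 0.03). That is 4 of 8, where 39.9% of all lncRNAs were lower and 5.30% higher after U1 AMO than after U2 AMO, and the medians were -0.83 and -0.60. Platr7 had 0.67 to 0.90 FPKM after U1 AMO, against 1.84 to 2.39 FPKM after U2 AMO. After centring Platr4 alone passed, where 12.3% of all were lower and 15.5% higher, with a log2 difference of -0.58 (adjusted p = 0.0293). The Platr6 difference was lost without U1 AMO replicate 1 or 3 or U2 AMO replicate 2 or 3 (adjusted p 0.0798 to 0.109). Platr3 (-0.80, SE 0.73, adjusted p = 0.388), Platr8 (-0.47, SE 0.29, adjusted p = 0.207), Platr5 (0.07, SE 0.84, adjusted p = 0.948) and Platr11 (0.79, SE 0.60, adjusted p = 0.308) did not pass, with errors too wide to show that the AMOs act alike on them. In nucleoplasm Platr7 was lower after U1 AMO, at 0.63, 0.69 and 1.29 FPKM, than after U2 AMO, at 2.03, 2.02 and 1.56 FPKM (log2 difference -1.03, SE 0.31, adjusted p = 0.028), where 20.7% of all lncRNAs were lower and 3.51% higher. This call was lost without replicate 1 or 2 of either group (adjusted p 0.0778 to 0.0902). With the replicate block Platr4 (-1.10, adjusted p = 0.00894) and Platr10 (-0.68, adjusted p = 0.0389) passed there as well. Of all lncRNAs 25.4% were then lower in nucleoplasm and 3.92% higher. In cytoplasm none passed, where 0.319% of all lncRNAs were lower and 2.71% higher. In whole cells none passed, where 8.90% were lower and 7.31% higher, and over both fractions 1 of the 16 tests had an unadjusted p under 0.05.

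U1 and U2 AMO together were given at a lower concentration than U1 AMO alone, and no test was made between them. Of the 8, 7 passed as lower against control AMO, where 48.9% of all lncRNAs were lower and 3.64% higher. All 3 AMO groups share the control libraries, so their changes are not independent of each other. Platr4 had 4.35, 4.90 and 4.88 FPKM (log2 change -1.95, SE 0.20, adjusted p = 4.29e-05) and Platr6 had 0.11, 0.30 and 0.20 FPKM (-1.93, SE 0.29, adjusted p = 3.18e-04), both with no overlap with control. Platr7 had 1.12, 1.39 and 0.55 FPKM (-1.47, SE 0.29, adjusted p = 0.00157) and Platr10 had 12.0, 12.7 and 14.2 FPKM (-0.72, SE 0.16, adjusted p = 0.0033). Platr8, at 0.21, 0.22 and 0.37 FPKM, changed by -1.01 (SE 0.29, adjusted p = 0.011), and by -0.82 (adjusted p = 0.0528) without control replicate 3. Platr3 had 1.12 and 0.62 FPKM and was listed at 0 in replicate 2 (-1.90, SE 0.73, adjusted p = 0.043), and Platr5 had 0.32 FPKM in replicate 1 and was listed at 0 in the others (-2.43, SE 0.84, adjusted p = 0.0266). The calls of Platr3 and Platr5 hung on single libraries. That of Platr3 was lost without control replicate 1 or 2 or U1+U2 AMO replicate 2 (adjusted p 0.0501 to 0.175), and that of Platr5 without the same libraries or U1+U2 AMO replicate 3 (adjusted p 0.072 to 0.0949). Platr11 did not pass (-0.80, SE 0.60, adjusted p = 0.277). The median log2 change was -1.69 over the 8 and -0.76 over all, and after centring Platr4 and Platr6 still passed on chromatin, where 101 of the 1263 lncRNAs tested were lower and 186 higher. In the other fractions none of the 8 passed without a block, where 5.18% of all lncRNAs were lower and 2.55% higher in cytoplasm, 6.59% and 7.68% in nucleoplasm, and 5.40% and 6.20% in whole cells, and 4 of the 24 tests had an unadjusted p under 0.05. Platr4 in nucleoplasm, at 2.24, 1.47 and 1.48 FPKM, changed by -1.15 (SE 0.43, adjusted p = 0.1), and passed with the replicate block (adjusted p = 0.00969) and after centring (adjusted p = 0.0475). Of all lncRNAs there, 8.85% were lower and 8.68% higher with the block, and 10.4% lower and 9.60% higher after centring.

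Chromatin shares rest on the same chromatin values as the changes above, so they are not a separate result. After U1 AMO Platr4 had 26.7% on chromatin, against 50.0% after control AMO. The range over same-numbered trios of fractions was 17.8% to 34.0% after U1 AMO and 43.7% to 61.4% after control AMO, with no overlap. Platr6 had 9.48% after U1 AMO, against 33.3% after control AMO, and Platr7 had 5.67% against 16.3%. Platr3 had 3.25% against 7.97% and Platr10 had 4.48% against 6.86%. Trios of these genes did not overlap either. Shares of Platr5 (7.47% against 21.6%), Platr8 (13.4% against 18.0%) and Platr11 (15.2% against 26.1%) had overlapping trios. After U2 AMO Platr8 (20.1%) and Platr10 (7.59%) had higher shares than after control AMO, and the other members had lower ones. The medians over all lncRNAs were 35.3% after U1 AMO, 46.4% after U2 AMO, 39.1% after U1+U2 AMO and 51.1% after control AMO. The shift is the chromatin change minus the mean of the cytoplasm and nucleoplasm changes, tested as 1 contrast. After U1 AMO the shift passed for Platr6 (log2 -1.54, SE 0.35, adjusted p = 0.00518) and Platr7 (-1.45, SE 0.34, adjusted p = 0.00746), 2 of 8, where 17.5% of all 1277 lncRNAs passed, all of them lower. Platr4 had a shift of -1.24 (SE 0.45, adjusted p = 0.0551) and Platr10 of -0.67 (SE 0.33, adjusted p = 0.141). With the replicate block these passed too (adjusted p 0.0232 for Platr4 and 0.037 for Platr10), which makes 4 of 8, where 21.9% of all lncRNAs then passed as lower. After U1+U2 AMO the shift passed for Platr6 alone (-1.41, SE 0.35, adjusted p = 0.0162), where 6.97% of all lncRNAs passed, and it was lost without control chromatin replicate 1 or 3 or U1+U2 AMO chromatin replicate 1 (adjusted p 0.0551 to 0.0737). With the replicate block Platr4 (-1.27, adjusted p = 0.0356) and Platr7 (-1.04, adjusted p = 0.0499) passed as well, 3 of 8 where 10.1% of all did. After U2 AMO none of the 8 passed, where 0.705% of all did, and 3 of the 8 had an unadjusted p under 0.05. Median shifts over the 8 were -1.28 after U1 AMO, -0.79 after U2 AMO and -1.16 after U1+U2 AMO, beside -0.68, -0.29 and -0.52 over all lncRNAs. Centred on the library medians, no shift of the 8 passed after any AMO, with log2 values of -0.68 for Platr6 and -0.59 for Platr7 after U1 AMO.

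**Figure D2:**
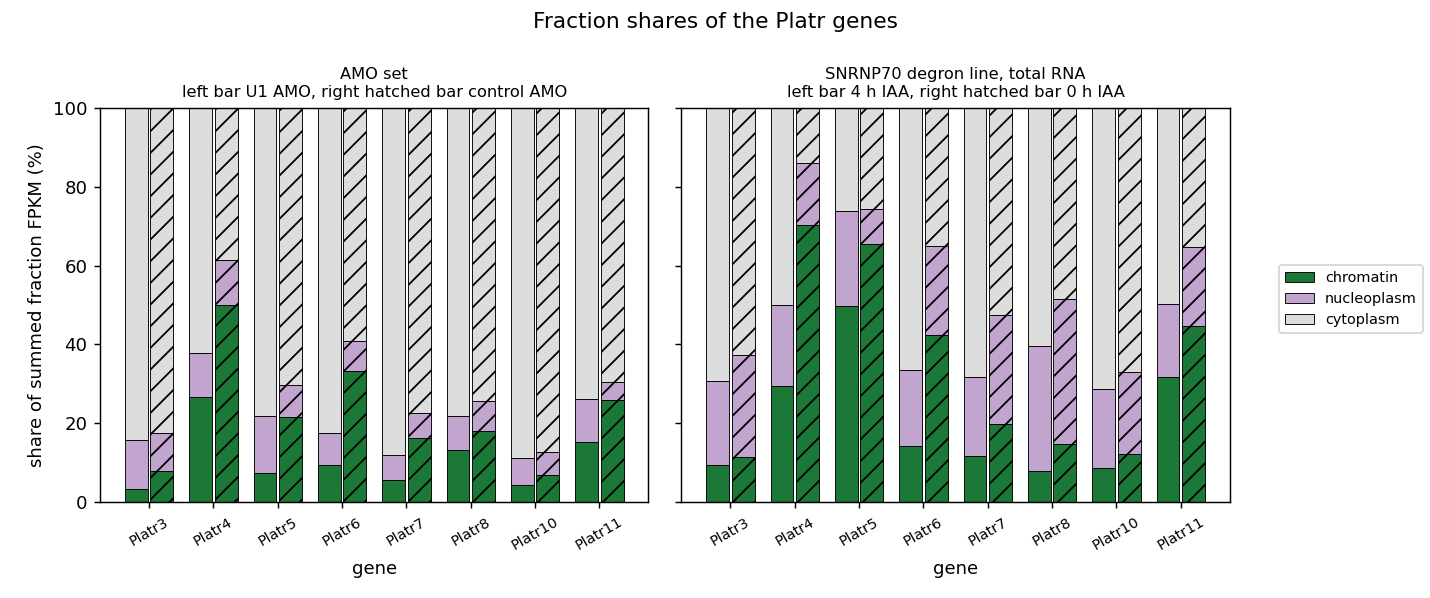
Shares of chromatin, nucleoplasm and cytoplasm (y axis, percent of the summed FPKM of the group means) for each Platr gene. The left panel gives U1 AMO beside control AMO and the right panel 4 h beside 0 h of IAA. The chromatin part of Platr4 is 26.7% after U1 AMO against 50.0% after control AMO, and 29.4% at 4 h against 70.2% at 0 h.

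IAA, which triggers breakdown of the degron-tagged protein, was followed by lower chromatin levels of nearly all 8 genes. At 4 h of IAA 7 of 8 passed as lower on chromatin in total RNA, where 47.3% of all 1250 lncRNAs tested were lower and 3.20% higher. The medians were -1.48 over the 8 and -0.63 over all. Log2 changes here are of FPKM plus 0.14.

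Platr4 had 6.66, 4.73 and 3.66 FPKM on chromatin at 4 h, against 44.4, 31.4 and 30.1 FPKM at 0 h. All libraries at 4 h were far below those at 0 h, and the change of -2.80 (SE 0.24, limma, adjusted p = 3.82e-05) was the largest in size of the 8. Platr6 had 0.35, 0.60 and 0.16 FPKM at 4 h, against 2.18, 1.92 and 1.47 FPKM at 0 h (log2 change -2.05, SE 0.35, adjusted p = 8.83e-04). Platr7 had 0.91, 1.13 and 0.70 FPKM at 4 h, against 3.22, 1.96 and 2.94 FPKM at 0 h (-1.43, SE 0.26, adjusted p = 0.00146). Neither gene's groups overlapped. After centring, these 3 genes still passed and no other member did, where 16.9% of all lncRNAs passed as lower and 21.7% as higher.

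Platr5 had 0.55, 1.04 and 0.40 FPKM at 4 h, against 1.87, 2.59 and 1.80 FPKM at 0 h (log2 change -1.53, SE 0.32, adjusted p = 0.00263). Platr11, with the overlap named above, had 3.00, 1.25 and 0.68 FPKM at 4 h, against 4.72, 3.69 and 6.65 FPKM at 0 h (-1.71, SE 0.42, adjusted p = 0.00636). Platr10 had 12.6, 12.1 and 12.0 FPKM at 4 h, against 20.7, 16.3 and 19.8 FPKM at 0 h (-0.62, SE 0.16, adjusted p = 0.00873). The groups of these 3 did not overlap either. Centred on the library medians Platr10 had a log2 change of 0.11 (adjusted p = 0.371), and Platr5 (-0.80) and Platr11 (-0.98) both had an adjusted p of 0.0979. Platr3 had 3.28, 4.53 and 2.25 FPKM at 4 h, against 6.81, 4.76 and 5.36 FPKM at 0 h, groups separated by a small gap (-0.76, SE 0.26, adjusted p = 0.0288). That call was lost without replicate 1 or 3 at 0 h or replicate 3 at 4 h (adjusted p 0.0523 to 0.108), and the centred change was -0.03. Platr8 did not pass, with 0.11, 0.06 and 0.14 FPKM at 4 h, against 0.28, 0.27 and 0.25 FPKM at 0 h (-0.75, SE 0.38, adjusted p = 0.119). Its groups did not overlap, at levels near the added 0.14.

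In cytoplasm none of the 8 passed at 4 h, where 1.28% of all lncRNAs were lower and 3.25% higher, and none had an unadjusted p under 0.05. Platr4 had 8.76, 9.35 and 7.56 FPKM in cytoplasm at 4 h, against 8.11, 7.29 and 5.93 FPKM at 0 h, overlapping groups with a log2 change of 0.27 (SE 0.18, adjusted p = 0.47). Platr6 had 1.71, 2.00 and 1.46 FPKM there at 4 h, against 1.63, 1.81 and 1.16 FPKM at 0 h (0.17, SE 0.26, adjusted p = 0.766). Its groups overlapped too, so neither gene showed a fall in cytoplasm like that on chromatin. The members' median in cytoplasm was -0.23 and that of all lncRNAs -0.04.

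In nucleoplasm 4 of 8 passed as lower at 4 h, where 11.2% of all lncRNAs did and 5.49% were higher. Platr7 had 1.82, 1.68 and 1.17 FPKM at 4 h, against 4.47, 3.44 and 3.37 FPKM at 0 h (log2 change -1.21, SE 0.22, adjusted p = 0.011). Platr4 had 3.06, 3.42 and 4.07 FPKM at 4 h, against 8.60, 6.96 and 8.11 FPKM at 0 h (-1.14, SE 0.18, adjusted p = 0.00534). In both the groups were well apart. Platr11 (-1.09, SE 0.26, adjusted p = 0.0225) and Platr3 (-0.75, SE 0.20, adjusted p = 0.0382) passed less firmly, and Platr11 not after centring (-0.86, adjusted p = 0.0681). The Platr3 call was lost without any 0 h library or 4 h replicate 2 or 3 (adjusted p 0.0607 to 0.117), and that of Platr11 without 0 h replicate 2 or any 4 h library (adjusted p 0.0509 to 0.0842). In whole cells Platr4 alone passed, at 5.20, 5.17 and 4.04 FPKM at 4 h against 13.2, 13.8 and 13.2 FPKM at 0 h (-1.46, SE 0.14, adjusted p = 0.00166), where 7.13% of all lncRNAs were lower and 5.60% higher. Platr10 in whole cells was at 51.5, 51.4 and 49.1 FPKM at 4 h against 51.8, 50.9 and 45.0 FPKM at 0 h (0.04, SE 0.09, adjusted p = 0.783), with overlapping groups. Platr11 was listed at 0 in whole-cell replicate 3 at 0 h, and Platr5 in whole-cell replicate 3 at 4 h.

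**Figure D3:**
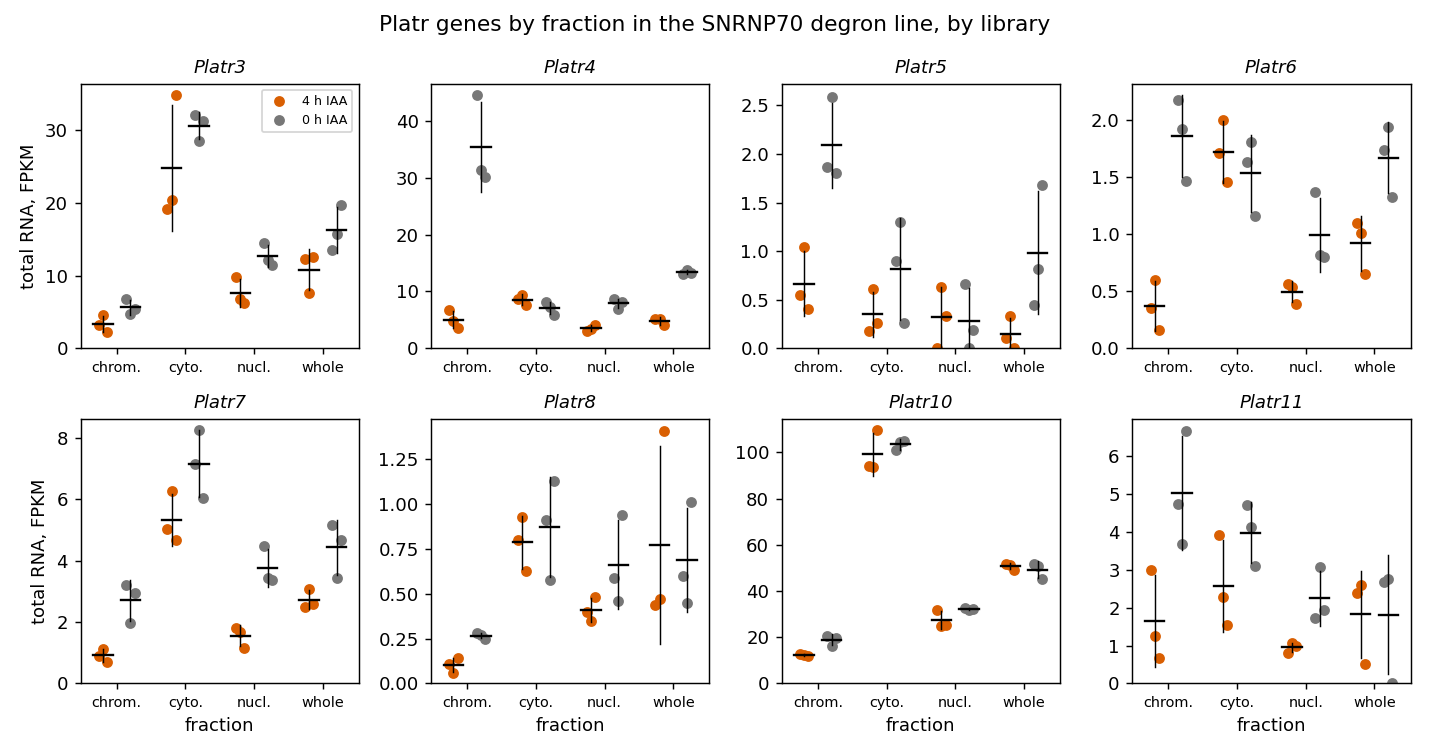
Total RNA FPKM (y axis, starting at 0, 1 scale per gene) of each Platr gene in chromatin, cytoplasm, nucleoplasm and whole cells of the degron line, 4 h of IAA beside 0 h. Points are libraries, the wide bar is the mean and the thin bar the SD (n = 3). Platr4 on chromatin is at 3.66 to 6.66 FPKM at 4 h against 30.1 to 44.4 FPKM at 0 h, while its cytoplasmic points overlap.

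The shift in the degron line passed for Platr4 (log2 -2.36, SE 0.26, adjusted p = 4.96e-05), Platr6 (-1.73, SE 0.37, adjusted p = 0.00426) and Platr10 (-0.47, SE 0.16, adjusted p = 0.0417), 3 of 8, where 21.2% of all lncRNAs shifted lower and 0.313% higher. Platr4 and Platr6 also passed after centring, where 4.46% of all were lower and 2.98% higher. Platr10 had a centred shift of 0.14 (adjusted p = 0.584), and its call was lost on leaving out any of 12 of the 18 libraries in the fit (highest adjusted p = 0.134). The chromatin share of Platr4 was 29.4% at 4 h, with trios from 23.9% to 36.0%, against 70.2% at 0 h, with trios from 68.2% to 72.7%. Platr6 had 14.3% on chromatin at 4 h (8.0% to 19.1%) against 42.3% at 0 h (42.1% to 42.9%), and Platr7 had 11.7% (10.7% to 12.4%) against 19.9% (14.4% to 23.8%). The trios of these 3 genes did not overlap, nor did those of Platr10 (8.80% at 4 h against 12.2% at 0 h). The shift of Platr7 did not pass (-0.61, SE 0.28, adjusted p = 0.132). Shares of Platr3 (9.38% at 4 h against 11.5% at 0 h), Platr5 (49.8% against 65.4%), Platr8 (7.95% against 14.8%) and Platr11 (31.8% against 44.7%) had overlapping trios. Over all lncRNAs the median share was 52.0% at 4 h and 65.4% at 0 h.

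PolyA RNA, selected for its tail, gave a like picture for 5 of the 7 genes held. A tail does not tell whether a transcript ended at its usual site, and transcript ends were not examined. On chromatin 5 passed as lower at 4 h, where 37.2% of all 1211 lncRNAs tested were lower and 9.00% higher, with medians of -1.44 over the 7 and -0.37 over all. Platr6 had 0.23, 0.19 and 0.31 FPKM at 4 h, against 1.89, 1.79 and 2.16 FPKM at 0 h (log2 change of FPKM plus 0.11, -2.55, SE 0.21, adjusted p = 7.38e-05). Platr4 had 2.70, 2.92 and 1.74 FPKM at 4 h, against 9.64, 12.8 and 14.1 FPKM at 0 h (-2.28, SE 0.22, adjusted p = 1.34e-04). Platr10 had 7.45, 6.76 and 7.42 FPKM at 4 h, against 19.3, 20.4 and 19.5 FPKM at 0 h (-1.44, SE 0.08, adjusted p = 2.06e-05). Each of these had tight, separate groups. Platr7 had 0.50, 0.23 and 0.17 FPKM at 4 h, against 1.13, 1.14 and 0.75 FPKM at 0 h (-1.51, SE 0.33, adjusted p = 0.00751). Platr5 had 1.36, 2.09 and 1.26 FPKM at 4 h, against 3.68, 3.23 and 3.63 FPKM at 0 h (-1.14, SE 0.20, adjusted p = 0.00258). Neither overlapped. After centring 16.6% of all lncRNAs passed as lower and 19.3% as higher. All 5 calls remained, including that of Platr10 (-0.96, adjusted p = 1.13e-04), which stands apart from its centred change in total RNA given above. Platr3 (-0.55, SE 0.50, adjusted p = 0.408) and Platr8 (-0.42, SE 0.39, adjusted p = 0.419) did not pass, and their groups overlapped.

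In whole-cell polyA RNA 2 of 7 passed as lower, where 7.21% of all lncRNAs were lower and 13.1% higher. Platr4 had 5.32, 4.02 and 5.77 FPKM at 4 h, against 7.48, 8.41 and 7.74 FPKM at 0 h (log2 change -0.65, SE 0.15, adjusted p = 0.0196), and lost its call without 0 h replicate 2 (adjusted p = 0.0703). Platr6 had 1.17, 0.72 and 0.84 FPKM at 4 h, against 1.76, 1.67 and 1.61 FPKM at 0 h (-0.83, SE 0.23, adjusted p = 0.0331), and lost it without any 0 h library or 4 h replicate 2 or 3 (adjusted p 0.0616 to 0.107). Both had separate groups. Platr10 was at 43.2, 39.7 and 35.6 FPKM at 4 h against 46.9, 42.0 and 44.1 FPKM at 0 h (-0.17, SE 0.09, adjusted p = 0.234), with overlapping groups.

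SLAM-seq counted reads with T>C changes, which come from RNA made during the 3 h of label, scaled to added RNA. Total RNA was sampled on chromatin but polyA RNA in cytoplasm and nucleoplasm, so fractions are not set against each other. The libraries held 24927 to 227242 such reads each, and members with few reads are imprecise. On chromatin 4 of the 5 genes held passed the filter on low values, and 3 of the 4 passed the test as lower with IAA, where 33.6% of all 423 lncRNAs tested were lower and 5.67% higher. Log2 changes are of the value plus 8.21, and the median over all lncRNAs was -0.41.

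Platr7 had scaled values of 1.26 and 0.78 on chromatin with IAA and was at 0 in replicate 1, which is 2 reads over the 3 libraries, against 32.1, 16.03 and 14.7 without IAA, from 21, 23 and 10 reads. The groups were far apart (log2 change -1.67, SE 0.32, limma, adjusted p = 0.00102). Platr7 met the filter on low values only through the libraries without IAA, where it is high, so only the 3 IAA libraries could be left out in turn (adjusted p up to 0.00502), and with no filter the adjusted p was 6.44e-04. Platr3 had 6.04, 10.1 and 1.56 with IAA, against 32.1, 27.9 and 20.6 without (-1.35, SE 0.33, adjusted p = 0.0048). Platr10 had 10.4, 1.26 and 5.46 with IAA, against 29.1, 20.9 and 29.4 without (-1.36, SE 0.33, adjusted p = 0.00471). Both pairs of groups were separate. These folds are held down by the added 8.21: edgeR on the reads behind the values gave -4.79 for Platr7 (adjusted p = 8.98e-04), -2.25 for Platr3 (adjusted p = 0.0123) and -2.10 for Platr10 (adjusted p = 0.0166). Centred on the library medians, Platr7 still passed, and Platr3 (-0.78, adjusted p = 0.0799) and Platr10 (-0.80, adjusted p = 0.0804) did not. Of all lncRNAs 15.4% were then lower and 22.7% higher. Platr4 did not pass, with 23.3, 50.5 and 28.9 with IAA, against 56.6, 73.2 and 44.1 without (-0.67, SE 0.31, adjusted p = 0.0975), and its groups overlapped. Platr5 had 0, 0 and 1 reads with IAA and 1, 14 and 6 without and was not tested.

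In nucleoplasm 2 of 5 passed as lower with IAA, where 9.59% of all lncRNAs were lower and 17.8% higher. Platr7 had 28.8, 4.93 and 17.0 with IAA, against 41.9, 92.6 and 55.0 without (log2 change -1.57, SE 0.51, adjusted p = 0.0116). Platr3 had 47.9, 90.3 and 50.9 with IAA, against 131, 133 and 118 without (-0.98, SE 0.37, adjusted p = 0.0357). In both the groups were separate, but the Platr7 call was lost without replicate 2 of either group (adjusted p 0.1 and 0.114). That of Platr3 was lost without any library lacking IAA or IAA replicate 1 or 3 (adjusted p 0.0536 to 0.153), and edgeR on reads gave it an adjusted p of 0.0626. In cytoplasm none of the 5 passed, where 4.02% of all lncRNAs were lower and 6.38% higher, and 2 of the 5 had an unadjusted p under 0.05. Platr4 had 591, 430 and 395 there with IAA, against 994, 797 and 846 without, groups that did not overlap (-0.90, SE 0.37, adjusted p = 0.0988). Its adjusted p was 0.146 by edgeR and 0.0376 by DESeq2 on reads, and 0.0126 after centring. Platr3 in cytoplasm had 60.6, 118 and 140 with IAA, against 257, 271 and 223 without, also apart (-1.24, SE 0.52, adjusted p = 0.104, and 0.0451 after centring). After centring 6.38% of all lncRNAs were lower in cytoplasm and 8.27% higher.

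**Figure D4:**
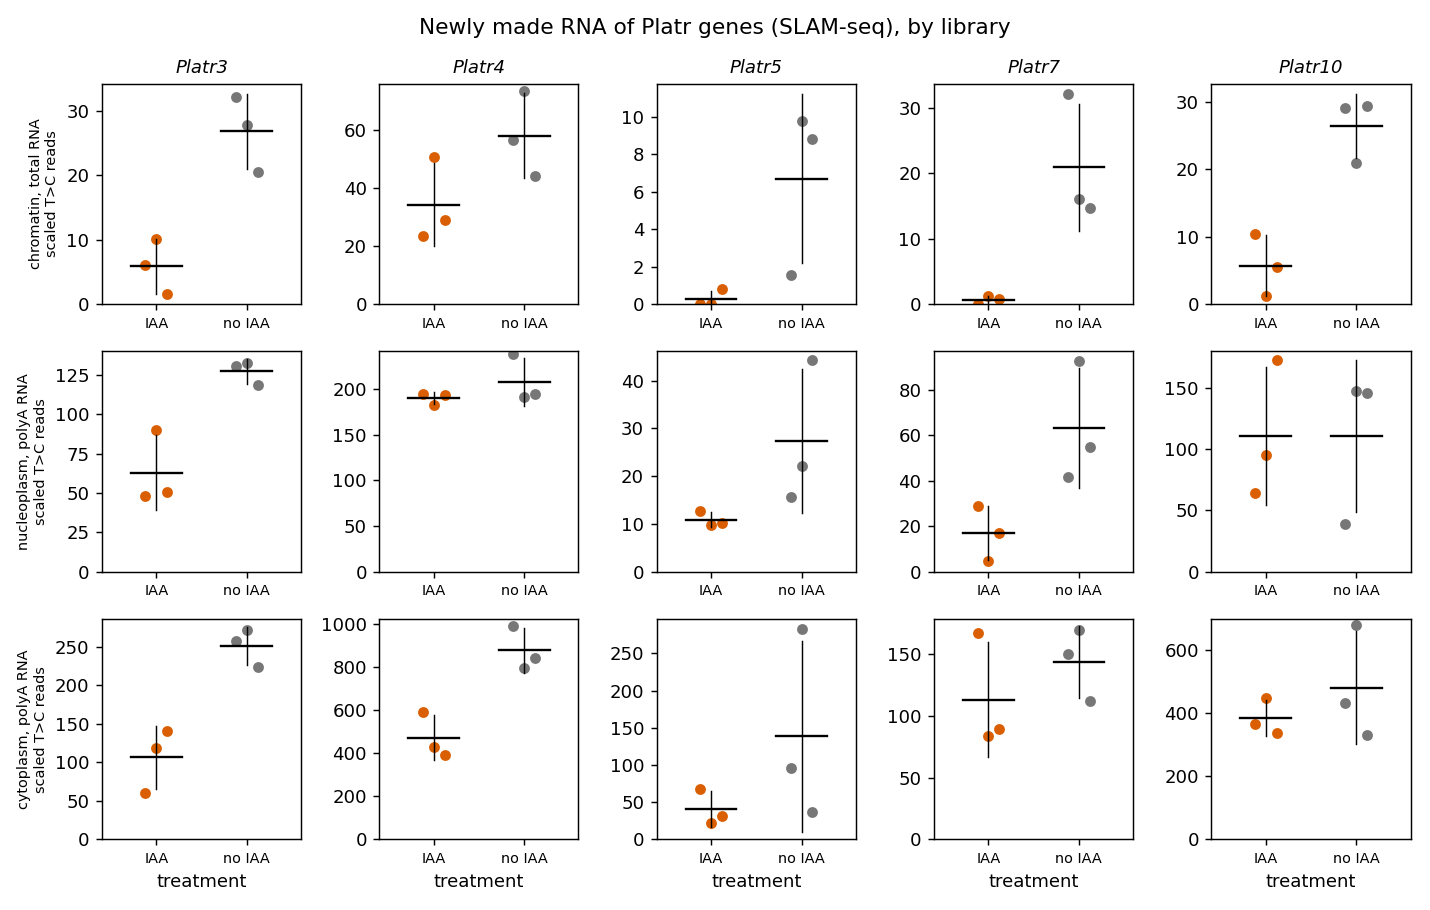
Scaled T>C reads (y axis, starting at 0, 1 scale per panel) of the 5 Platr genes held by the SLAM-seq table, with IAA beside without IAA, in chromatin (total RNA), nucleoplasm and cytoplasm (polyA RNA). Points are libraries, the wide bar is the mean and the thin bar the SD (n = 3). Platr7 on chromatin is at 0 to 1.26 with IAA against 14.7 to 32.1 without.

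Side by side, Platr6 passed as lower on chromatin in all 5 tests made of it there (U1, U2 and U1+U2 AMO, and 4 h of IAA in total and polyA RNA), and Platr4 in the same 5 but not in SLAM-seq. Platr10 passed in 5 of 6, all but U2 AMO. Platr7 passed in the same 5, but in SLAM-seq it met the filter on low values only through the libraries without IAA. Of all lncRNAs tested, 51.3% were lower after U1 AMO, 4.75% after U2 AMO and 48.9% after U1+U2 AMO. At 4 h of IAA 47.3% were lower in total and 37.2% in polyA RNA, and 33.6% were in SLAM-seq. How many lncRNAs passed in as many comparisons was not counted. After centring Platr4 and Platr6 kept all 5 calls, Platr7 lost that after U1+U2 AMO and Platr10 kept only that in polyA RNA. Platr8 passed after U1 and U1+U2 AMO, Platr5 after U1+U2 AMO and in total and polyA RNA of the degron line, Platr3 after U1+U2 AMO, in total RNA of the degron line and in SLAM-seq, and Platr11 in total RNA of the degron line alone. None passed as higher in any fraction of any comparison against its control, apart from Platr5 in nucleoplasm after U2 AMO with the replicate block. The AMO comparisons share control libraries, and the same cells or fractions may lie behind total and polyA values of the degron line, which the labels do not settle.

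**Figure D5:**
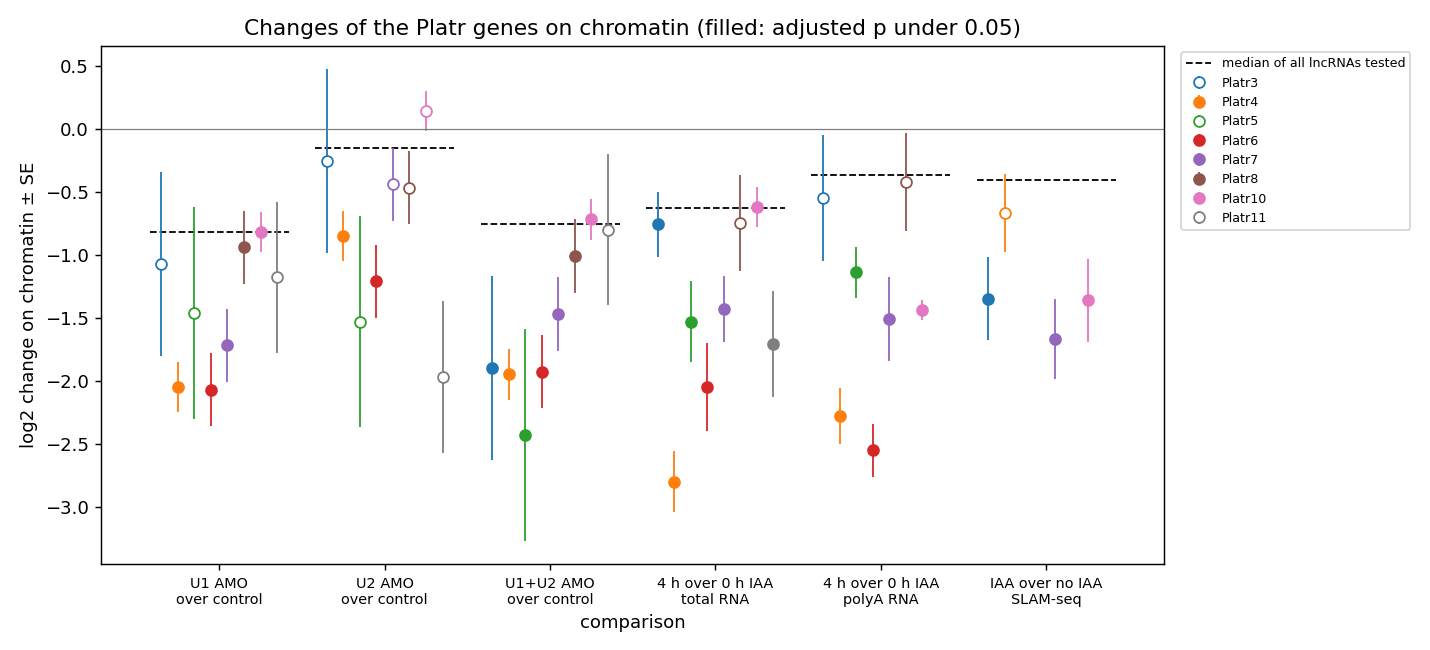
Log2 change on chromatin (y axis, with SE from limma) of each Platr gene in 6 comparisons, with filled points for an adjusted p under 0.05 and a dashed line at the median of all lncRNAs tested. Platr4 and Platr6 lie well below the dashed line in total and polyA RNA, and Platr10 lies on it after U1 AMO (-0.82).

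Other Platr genes of the same tables were counted in the same way on chromatin. Of 13 tested, 9 passed as lower after U1 AMO (median log2 change -1.06), where 51.3% of all lncRNAs did. After U2 AMO 3 of 13 passed as lower (-0.64), where 4.75% of all did, and after U1+U2 AMO 9 of 13 (-1.06), where 48.9% of all did. At 4 h of IAA 13 of 13 passed as lower in total RNA (-1.32), where 47.3% of all did, and 7 of 12 in polyA RNA (-1.16), where 37.2% of all did. In SLAM-seq 4 of the 5 that met the filter passed as lower, where 33.6% of all did. None passed as higher in these 6 comparisons, though log2 changes reached 0.06 after U1 AMO, 0.30 after U2 AMO and 0.81 in polyA RNA. Of other ESC lncRNAs, Lncenc1 and Panct2 were held for total RNA. As lower on chromatin, 2 of 2 passed after U1 AMO (log2 changes of -1.29 to -1.26), 0 of 2 after U2 AMO (-0.59 to -0.58), 2 of 2 after U1+U2 AMO (-1.31 to -1.15) and 2 of 2 at 4 h of IAA (-1.62 to -0.95). With Tunar, also held for polyA RNA, 2 of 3 passed there (-1.55 to -0.81), and in SLAM-seq 1 of the 2 tested did (-1.43 to -0.83).

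The 8 genes differed in pattern among themselves. Over 24 group means of the AMO and degron total RNA tables, in log2 and centred per table, Pearson's r between pairs of the 8 ran from 0.333 to 0.953 with a median of 0.719 (28 pairs). These points share libraries and scaling, and r is given as a description. The 2 genes most like each member were sought among the 1279 listed as lncRNAs. Cct6a and Smim20 are symbols of protein-coding genes, and why they are listed there was not checked. The 2 genes were 1110002L01Rik (r = 0.981) and 2810408I11Rik (0.977) for Platr7, Gm17322 (0.983) and Cct6a (0.980) for Platr10, and Cct6a (0.975) and Smim20 (0.967) for Platr3. For Platr4 they were C330024D21Rik (0.955) and 4833417C18Rik (0.954), and for Platr6 Gm16201 (0.954) and Platr21 (0.952). For Platr8 they were 4930566F21Rik (0.958) and Lncenc1 (0.949). Platr5 and Platr11 had lower top values, with 2400006E01Rik leading for both (0.825 and 0.870), followed by 4930558J18Rik (0.824) for Platr5 and Gm28424 (0.869) for Platr11.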

How the data were processed

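Per the file headers, the 3 tables of total and polyA RNA hold FPKM made by the authors, and the SLAM-seq table holds a signal of T>C reads scaled to added RNA. Per the labels' protocols, rRNA was removed and libraries were made with a directional kit, and the submitters' processing notes name CASAVA, TopHat, Cufflinks and the mm10 build, with no versions. 101 library columns were used of a series of 112 samples, 1 column of values was not used because its name gives no fraction, and the other assays were not analysed here. The unused column is named for control AMO replicate 3, whose chromatin, cytoplasm and nucleoplasm columns were used. By elimination it may be the whole-cell library, and the whole-cell AMO results rest on 2 controls without it. The header of U1 AMO whole-cell replicate 3 names no unit, and its values lie on the scale of the others. Rows were matched to symbols by gene identifier, and 3 rows (2 in polyA RNA) with a shared identifier were left out.

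Changes were fitted across all lncRNAs with limma 3.58.1 (R 4.3.3; lmFit and eBayes with a trend) on log2 values, after adding to each table its 10th percentile of nonzero values (0.16, 0.14, 0.11 and 8.21), for lncRNAs at or above it in at least 3 libraries of the fit. All groups of a fraction shared a fit, p-values were adjusted by Benjamini and Hochberg over all lncRNAs tested, and the threshold was 0.05. Values scaled to added RNA keep a change shared by all lncRNAs, and centring each library on its median removes it. Whole reads were recovered from the deposited signal (100% of 97 to 297 low values per library within 0.1 of a whole number), and their counts were tested with edgeR 4.0.16 and DESeq2 1.42.0. The fits were also run on simulated data, with outcomes not reported here, so no conclusion is drawn from them. Same-numbered libraries were taken as paired where each of at least 3 pairs correlated above 0.1 in their deviations, which held in 11 of 25 comparisons (r of 0.11 to 0.51 between pairs). The fit with a replicate block is given beside calls it changed in those comparisons and in the shifts after U1 and U1+U2 AMO, and elsewhere with the alternatives. Other alternatives were other pseudocounts, no filter, centring, fits of only the groups compared or without a trend, single soluble fractions in the shift, and leaving out each library.

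The members, the gene lists and the tests were chosen with earlier results of these data known. Every member is named, and the 2 genes listed as lncRNAs that are most like each by Pearson's r.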

Additional observations from a re-analysis of the deposited data

Results flagged for a closer look

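The change on chromatin differed from the mean change in cytoplasm and nucleoplasm for these genes, by the test of that difference (limma, adjusted p under 0.05). After U1 AMO against control AMO the difference was -1.54 for Platr6 and -1.45 for Platr7 on the log2 scale. After U1+U2 AMO against control AMO it was -1.41 for Platr6. At 4 h against 0 h of IAA it was -2.36 for Platr4, -1.73 for Platr6 and -0.47 for Platr10. The median over all lncRNAs tested had the same sign, at -0.68 after U1 AMO, -0.52 after U1+U2 AMO and -0.56 at 4 h of IAA. Of all lncRNAs, 17.5%, 6.97% and 21.2% passed as lower in these comparisons, in the same order. Centred on the library medians, only the shifts of Platr4 and Platr6 at 4 h of IAA still passed. That of Platr10 was then 0.14 (limma, adjusted p = 0.584), and uncentred it was lost on leaving out any of 12 of 18 libraries.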

How the results depend on the processing

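Counts below are of members called over all fractions of a comparison. Shares over all lncRNAs are given for most calls under centring and the replicate block. Under the other settings no such share was made, so those counts show only how calls moved. Centring each library on its median gave 3 calls in place of 7 for U1+U2 AMO, 1 in place of 5 for U1 against U2 AMO, 7 in place of 12 for total RNA at 4 h of IAA, 0 shifts in place of 2 after U1 AMO and of 1 after U1+U2 AMO, and 6 in place of 3 for chromatin against soluble after control AMO. Centring also turned the sign of Platr10 on chromatin after U1 AMO (0.03), after U1+U2 AMO (0.10) and at 4 h of IAA (0.11), and of its shift in the degron line (0.14). Signs of values that had not passed turned too, such as chromatin against soluble for Platr6 (-0.69 after control AMO and -1.27 at 0 h). Centring sets each value against the median lncRNA of its library. It removes the fall shared by all lncRNAs by construction. The replicate block gave 4 calls in place of 2 for U2 AMO, 4 shifts in place of 2 after U1 AMO and 3 in place of 1 after U1+U2 AMO. The U2 AMO calls were Platr4, Platr6 and Platr11 as lower on chromatin and Platr5 as higher in nucleoplasm. Of all lncRNAs, 9.18% were then lower on chromatin and 22.2% higher in nucleoplasm after U2 AMO. The shift after U1 AMO was then lower for 21.9% of all, and the share after U1+U2 AMO is given above. Where the rule for pairing was not met, the block also moved Platr4 in whole cells past the threshold after U1 AMO (-1.19, adjusted p = 0.0112) and U1+U2 AMO (-0.91, adjusted p = 0.0372), and Platr8 in cytoplasm after U1+U2 AMO (-1.04, adjusted p = 0.038), and Platr3 in SLAM-seq nucleoplasm out of it (adjusted p = 0.0623). Whole cells had only 2 pairs with control AMO, so the rule could not be met there (r of 0.09 to 0.19 for U1 AMO and 0.02 to 0.16 for U1+U2 AMO). In cytoplasm after U1+U2 AMO r was 0.09 to 0.15, just short of the rule. With the block 7.94% of all lncRNAs were lower in whole cells after U1 AMO and 5.72% after U1+U2 AMO. In cytoplasm after U1+U2 AMO 7.89% were lower with it. For chromatin against soluble at 0 h, where pairing was not checked, the block made Platr6 pass as higher (0.55, adjusted p = 0.0218). A pseudocount of 1 gave 2 shifts after U1+U2 AMO and 5 calls for chromatin against soluble after control AMO, and the pseudocount divided by 4 gave 1 call for U2 AMO, as did fitting only the groups compared. Against nucleoplasm alone there was 1 shift after U2 AMO (in place of 0) and 1 in the degron line (in place of 3), and against cytoplasm alone 0 after U1+U2 AMO. The cause of the changes other than by centring was not tested.

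Leaving out each library gave 4 to 6 calls for U1 AMO, 0 to 3 for U2 AMO, 5 to 8 for U1+U2 AMO, 4 to 6 for U1 against U2 AMO, 10 to 13 for total RNA at 4 h of IAA, 5 to 7 for polyA RNA and 3 to 6 for SLAM-seq. Shifts numbered 2 to 4 after U1 AMO, 0 to 0 after U2 AMO, 0 to 3 after U1+U2 AMO and 2 to 4 in the degron line, and calls of chromatin against soluble 3 to 4 after control AMO and 6 to 7 at 0 h. The libraries that moved a count by over 1.5 times were, for U2 AMO, control chromatin replicate 1 (0), 2 (1) and 3 (0) and U2 chromatin replicate 3 (0). For shifts after U1+U2 AMO they were U1+U2 chromatin replicate 1 (0) and 2 (2), control chromatin replicate 1 (0) and 3 (0), control cytoplasm replicate 1 (2) and control nucleoplasm replicate 1 (3). For shifts after U1 AMO it was U1 nucleoplasm replicate 2 (4), and for SLAM-seq the no IAA nucleoplasm replicate 2 (3). Over 62 member values and 909 alternative values of them, 801 kept direction and side of the threshold, 102 fell short of it, 2 newly passed and 4 changed sign. FPKM gives no depth, so precision of genes near 0 is unknown.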
